A study of Mus musculus with 9 samples.

Results

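The 10 genes described here encode selenoproteins: Selenok, Selenos, Selenof, Selenot, Selenow, Gpx1, Gpx3, Gpx4, Txnrd1 and Selenop. They were looked up by gene identifier in a table of 11802 mouse genes, and all 10 were found. The set was built around Selenok, which had drawn attention as 1 of only 4 genes called higher in KO-labelled than in WT-labelled libraries. The call was a limma adjusted p under 0.05 after each library's own median was subtracted. The question put to the data was whether the rest of the family follows Selenok. Because that difference chose Selenok, its values are described here and not tested.

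RNA on HA-tagged ribosomes of endothelial cells was captured from mouse white adipose tissue and sequenced. The 5 KO-labelled libraries came from the strain Pdgfb-iCreERT2:Mfn2iΔEC:Rpl22HA, in which Mfn2 (mitofusin 2, a protein of mitochondrial fusion) is labelled as absent from endothelial cells. The 4 WT-labelled libraries came from Pdgfb-iCreERT2:Rpl22HA mice, with endothelial Mfn2 labelled as present. Both groups carry the Pdgfb-driven, tamoxifen-dependent Cre and the tagged ribosomal protein Rpl22, and the labels give no age, sex or dosing. The replicates are called biological, but no animal is named, and a p-value here reflects the spread among the libraries only.

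A selenoprotein contains selenocysteine, an amino acid with selenium in the place of the sulphur of cysteine. It is inserted at a UGA codon, which elsewhere ends translation, when a hairpin in the untranslated tail of the mRNA recruits a binding protein, an elongation factor and a dedicated transfer RNA. Many members are enzymes that reduce peroxides or disulfides, and others sit in the endoplasmic reticulum (ER). Selenok and Selenos are ER membrane proteins that take part in disposal of misfolded proteins, and Selenok also serves as a partner of the palmitoyl transferase Zdhhc6.

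The recoded codons of the 10 genes are shown because they define the family and because their place in the protein differs between Selenok and most of the others. Each line runs 5′ to 3′ on the coding strand, with the selenocysteine codon in capitals and 15 bases on either side, from the GENCODE M21 annotation of GRCm38.
Selenok: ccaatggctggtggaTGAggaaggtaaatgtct
Selenos: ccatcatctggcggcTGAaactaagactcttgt
Selenof: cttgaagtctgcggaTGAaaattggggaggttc
Selenot: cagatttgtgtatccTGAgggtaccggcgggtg
Selenow: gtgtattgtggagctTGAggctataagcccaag
Gpx1: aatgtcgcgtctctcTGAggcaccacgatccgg
Gpx3: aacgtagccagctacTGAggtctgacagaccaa
Gpx4: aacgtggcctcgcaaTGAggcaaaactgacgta
Txnrd1: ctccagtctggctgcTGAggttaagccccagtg
Selenop: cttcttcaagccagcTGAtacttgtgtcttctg

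For each gene, transcripts tagged basic in GENCODE were considered, or all where none was. Of these, the longest of those with the most annotated selenocysteine codons was used. Codon numbers, distances to exon junctions and transcript lengths given here belong to that transcript and not to every form of the gene. In Selenok the codon lies at chr14:29973440-29973442 on the plus strand, is codon 92, and has 2 codons after it. In Selenos it lies at chr7:66088844-66088846 on the plus strand, is codon 189, and has 1 codon after it. Txnrd1 shares this position next to the end of the protein, with codon 612 (chr10:82896037-82896039, plus strand) followed by 1 codon. In Gpx1 (codon 47), Gpx3 (codon 73), Gpx4 (codon 129), Selenow (codon 13), Selenot (codon 49) and Selenof (codon 93) it stands within the protein. Selenop has 10 such codons, and the sequence shown is that of the first, codon 59. The base after TGA was G in 7 genes, A in 2 and T in 1.

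Several features of the libraries touch the values below. Reads on listed genes numbered 1615968 to 3829356 in KO-labelled and 1034753 to 2501048 in WT-labelled libraries. The mitochondrial ribosomal RNAs took 12.8% to 25.2% of the values in KO-labelled libraries, and 64.8%, 47.5%, 48.3% and 13.9% in WT-labelled replicates 1 to 4, so that WT-labelled replicate 4 stood with the KO-labelled libraries. The level of the median gene moved with this share, at 16.7 to 23.9 CPM (read counts scaled to a common library total) in KO-labelled and 6.30 to 16.2 CPM in WT-labelled libraries. Over all genes the median log2 fold change was 1.10 in the deposited CPM, and 0.12 after each library's median was subtracted. Changes "relative to the library median" below are of this second kind. Mfn2 reads did not separate the labels, with 66.7 ± 37.0 CPM in KO-labelled libraries (SD, n = 5) and 36.1 ± 15.0 CPM in WT-labelled libraries (SD, n = 4), so every direction given here is a direction between labels. Which part of Mfn2 was deleted is not given in the sources used here, and reads on exons left in place would count too. The 12 endothelial markers were all listed and summed to 2446 to 5669 CPM in KO-labelled and 797 to 2757 CPM in WT-labelled libraries, and the 12 adipocyte markers, also all listed, to 2741 to 5596 CPM in KO-labelled and 2144 to 3511 CPM in WT-labelled libraries. Skeletal muscle markers (10 of 12 listed) summed to 484 to 8824 CPM in KO-labelled libraries, with replicate 5 the highest, and 86.2 to 258 CPM in WT-labelled libraries. Macrophage markers (11 of 12 listed) summed to 728 to 1577 CPM in KO-labelled and 297 to 1148 CPM in WT-labelled libraries. Fibroblast markers (10 of 12) summed to 1889 to 12949 CPM in KO-labelled and 2760 to 9128 CPM in WT-labelled libraries, and mural cell markers (7 of 12) to 298 to 574 CPM in KO-labelled and 116 to 242 CPM in WT-labelled libraries. These sums carry the shift common to most genes. Relative to the library median, the mean log2 value of the list was lower in KO-labelled libraries for adipocyte (difference −0.41, 9 of 12 genes below 0), fibroblast (−0.52, 9 of 10) and macrophage markers (−0.18, 7 of 11), and higher for endothelial (0.48, 12 of 12 genes above 0), mural (0.10, 4 of 7) and skeletal muscle markers (2.00, 10 of 10). How much any of these differences adds to the results below was not tested, apart from the covariate fits given with them. Of 12 lymphocyte markers 1 was listed, Ighm. In captured bulk RNA, fewer cells of a type and less RNA per cell cannot be told apart.

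Selenok (ENSMUSG00000042682, chr14:29968308-29975662) had 216, 312, 440.0, 261 and 353 CPM in KO-labelled replicates 1 to 5, against 27.9, 76.0, 32.0 and 107 CPM in WT-labelled replicates 1 to 4. Every KO-labelled library stood above every WT-labelled one, as was so for 18.7% of all genes in CPM. The range of Selenok was 2.03-fold within KO-labelled libraries and 3.85-fold within WT-labelled libraries. The means were 316 ± 86.3 CPM in KO-labelled (SD, n = 5) and 60.8 ± 37.9 CPM in WT-labelled libraries (SD, n = 4), a ratio of 5.20. These values rest on 445 to 1374 reads per KO-labelled library and 61 to 192 reads per WT-labelled library. In the KO-labelled replicate nearest to the WT-labelled ones, replicate 1, the 95% Wilson interval was 201 to 233 CPM. It was 89.3 to 129 CPM in the WT-labelled replicate with the highest level, replicate 4. Both intervals cover counting error only.

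Relative to the library median the log2 difference of Selenok was 1.56 (SE 0.303), a 2.95-fold difference that lay at the 99.0th percentile of all genes. The per-library values were 3.35, 4.14, 4.30, 3.53 and 3.83 in KO-labelled and 1.99, 2.77, 1.66 and 2.66 in WT-labelled libraries, again without overlap. On this scale 2.07% of all genes had every KO-labelled library above every WT-labelled one. The limma adjusted p of Selenok, 0.0491, is the value that brought it into view and is given only as the mark of that choice. Just inside the same threshold of 0.05 was Ddit4 at an adjusted p of 0.0403, and just outside it were Ryr1 and Gm48228, both at 0.0929.

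**Figure D1:**
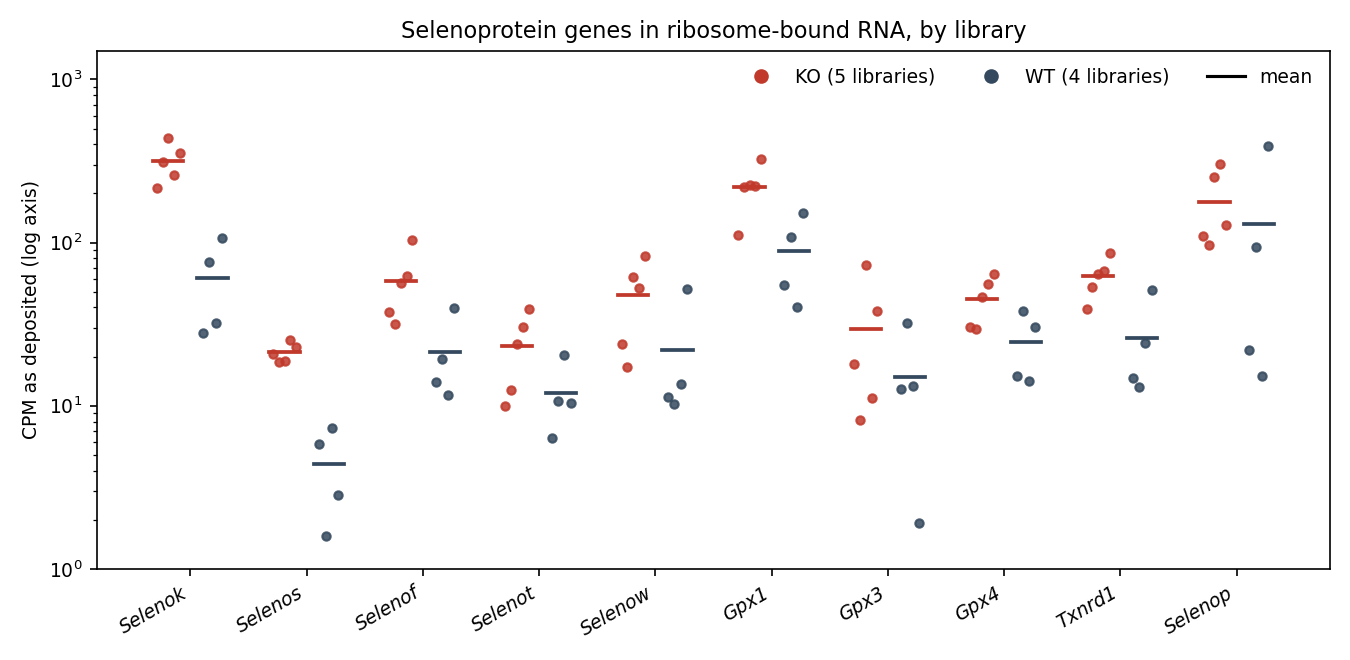
Deposited CPM (log axis) of the 10 selenoprotein genes, 1 point per library, KO-labelled in red and WT-labelled in blue, with a bar at each group mean. The red and blue points of Selenok and Selenos do not overlap, and those of the other 8 genes do. Among all genes, 18.7% had every KO-labelled library above every WT-labelled one in CPM.

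The Selenok transcript holds sequence that other annotated genes share. A search of its transcript against all GENCODE M21 transcripts found 7 genes with at least 100 bases at 90% identity or more, of which 3 were listed in the table. Gm48228, annotated as a lincRNA at chr13:62006640-62126102, matched bases 185 to 588 of the Selenok transcript in the opposite orientation, 404 aligned bases at 98.27% identity. Selenok-ps1 on chromosome 11 matched 727 bases at 91.88%, and Selenok-ps6 on chromosome 13 matched 283 bases at 96.11%. How the authors assigned reads that fit several places is not given in the sources used here, and the library kit does not mark strand, so reads of Selenok and of these genes cannot be told apart where they match.

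Gm48228 had 66.5, 49.7, 109.6, 84.3 and 103 CPM in KO-labelled libraries and 14.0, 15.0, 7.35 and 5.70 CPM in WT-labelled libraries. Like Selenok it did not overlap between the groups in CPM, beside 18.7% of all genes with every KO-labelled library above every WT-labelled one. WT-labelled replicate 4, the highest WT-labelled library for Selenok, was the lowest for Gm48228. Its log2 difference relative to the library median was 1.92 (SE 0.416, limma adjusted p = 0.0929). Selenok-ps1 averaged 12.8 ± 7.08 CPM in KO-labelled and 3.76 ± 3.94 CPM in WT-labelled libraries (adjusted p = 0.608 relative to the library median), and Selenok-ps6 averaged 8.36 ± 3.80 CPM in KO-labelled and 3.33 ± 3.46 CPM in WT-labelled libraries (adjusted p = 0.791). Selenok and the 3 listed copies together had 420.2 ± 114 CPM in KO-labelled and 78.4 ± 42.8 CPM in WT-labelled libraries. The copies made up 24.7% of that sum in KO-labelled and 22.4% in WT-labelled libraries. The log2 difference of the sum relative to the library median was 1.56, the same to 2 decimals as for Selenok alone.

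**Figure D2:**
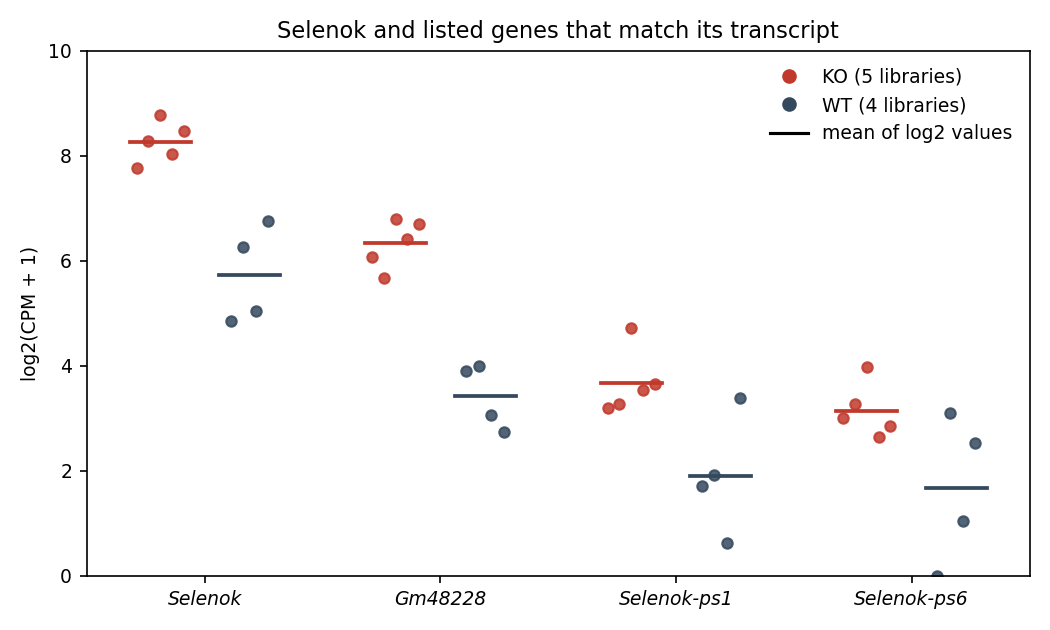
Log2(CPM + 1) of Selenok and the 3 listed genes that match its transcript, 1 point per library, KO-labelled in red and WT-labelled in blue, with bars at the means. Selenok and Gm48228 separate the labels in all 9 libraries, and the points of Selenok-ps1 and Selenok-ps6 overlap. Among all genes, 18.7% had every KO-labelled library above every WT-labelled one in CPM.

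No other member passed the test once the shift common to most genes was taken out, and in the deposited CPM, which carry that shift, 5 did. These 5 of the other 9 members were called higher in KO-labelled libraries (Selenos, Selenof, Gpx1, Txnrd1 and Selenop; limma, Benjamini-Hochberg adjusted over 11802 genes), which is 55.6%, beside 32.0% of all genes, and 0.203% of all genes were called lower. Relative to the library median 0 of the 9 were called, beside 0.0339% of all genes called higher and 0.0763% called lower. On that scale 1 of 9, Selenos, had an unadjusted p under 0.05 in the upward direction, beside 5.99% of all genes. The 9 members had a median log2 difference of 0.41 relative to the library median, beside 0.12 for all genes, and 6 of 9 lay above 0, beside 57.9% of all genes. On reads recovered from the CPM, edgeR and DESeq2 each called 0 of the 9 and gave 0 of them an unadjusted p under 0.05, with 6 of 9 carrying an adjusted p in DESeq2. edgeR called 0.00847% of all genes higher, and DESeq2 0.773% of the 4009 genes to which it gave an adjusted p. Selenok itself, chosen by its own difference, was called by DESeq2 and not by edgeR. The count of 5 in deposited CPM went to 0 when the mitochondrial rRNA values were taken out and the rest rescaled. It also went to 0 with the mitochondrial rRNA share, the endothelial list or the adipocyte list as a covariate. Calls over all genes, in either direction, fell from 3804 to 18, 0 and 8 with these 3 covariates. They also fell without the mitochondrial rRNAs, as given below. With so few calls over all genes, 0 of 9 is no result about the members. The member count was 1 without WT-labelled replicate 1, where 1103 genes were called in all. It was 2 without WT-labelled replicate 3, KO-labelled replicate 3 or KO-labelled replicate 4, and 3 without KO-labelled replicate 5.

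**Figure D3:**
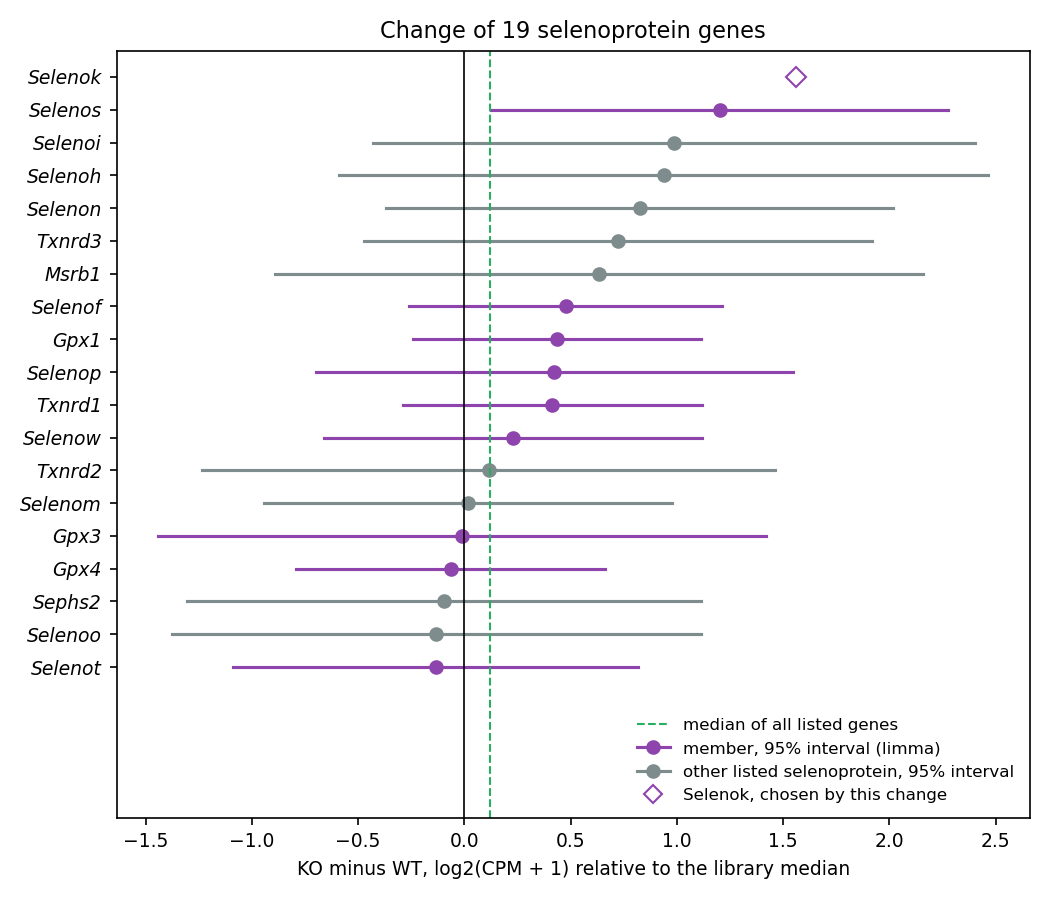
Difference KO minus WT in log2(CPM + 1) relative to the library median for the 19 listed selenoprotein genes, with 95% limma intervals, members in purple and other selenoproteins in grey. Selenok, which was chosen by this value, is an open diamond without an interval, the dashed line is the median of all genes at 0.12, and only the interval of Selenos lies above 0.

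Among the members of the ER, Selenos was the one nearest to Selenok in size of difference. Selenos (ENSMUSG00000075701, chr7:66079649-66089405) links the p97 ATPase Vcp to the ER membrane during protein disposal. It had 20.6, 18.6, 18.8, 25.2 and 22.9 CPM in KO-labelled libraries, against 5.85, 1.58, 7.35 and 2.85 CPM in WT-labelled libraries. No KO-labelled library overlapped a WT-labelled one, and the KO-labelled libraries lay within 1.35-fold of each other, the narrowest range of the 10 genes in that group. Only 3 to 14 reads stood behind each WT-labelled value, so that the Wilson interval of replicate 4 ran from 0.970 to 8.38 CPM. The deposited log2 fold change was 2.18 (SE 0.563, adjusted p = 0.0088). After the median was subtracted, the log2 difference was 1.20 (SE 0.516, adjusted p = 0.373), and its 95% interval ran from 1.09-fold to 4.84-fold. Its deposited call held with any 1 library left out and ended without the mitochondrial rRNAs (adjusted p = 0.0916) and with each covariate, over a range of 0.0049 to 0.345 for all alternatives. On the relative scale WT-labelled replicate 1, at −0.09, lay above KO-labelled replicate 3, at −0.19, so the groups overlapped. Of all genes, 18.7% had every KO-labelled library above every WT-labelled one in CPM, and 2.07% did so relative to the library median.

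Selenof, an ER lumen protein that binds the folding sensor of glycoproteins, had 37.3, 31.5, 56.3, 62.7 and 104 CPM in KO-labelled libraries and 14.0, 19.4, 11.6 and 39.9 CPM in WT-labelled libraries. WT-labelled replicate 4 lay above KO-labelled replicates 1 and 2. Its deposited log2 fold change of 1.45 (SE 0.469, adjusted p = 0.0219) became 0.48 relative to the library median (SE 0.353, adjusted p = 0.630; interval 0.836-fold to 2.32-fold). The deposited call ended without WT-labelled replicate 1 or 3 or KO-labelled replicate 3, 4 or 5 (adjusted p from 0.0515 to 0.0746). It also ended with the replicate number as a block (0.0729), with each covariate and without the mitochondrial rRNAs. The range was 0.0036 to 0.988 over all alternatives. Selenot, an ER membrane member with a thioredoxin-like fold, had 10.0, 12.4, 23.8, 30.5 and 39.4 CPM in KO-labelled libraries and 6.30, 10.7, 20.5 and 10.5 CPM in WT-labelled libraries. The 2 groups overlapped, and Selenot had the lowest relative difference of the 10 genes, −0.14 (SE 0.458, adjusted p = 0.935; interval 0.470-fold to 1.76-fold).

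Cytosolic Selenow is a small redox protein known for its abundance in muscle. It had 24.0, 17.2, 61.3, 52.7 and 82.8 CPM in KO-labelled libraries and 11.3, 10.3, 13.7 and 52.3 CPM in WT-labelled libraries. WT-labelled replicate 4 was far above the other 3 of its label, and KO-labelled replicate 5, which also had the highest skeletal muscle sum, was the highest of all. KO-labelled replicate 1, with the next highest muscle sum (902 CPM), had 24.0 CPM of Selenow. The part of muscle RNA in the Selenow values was not tested. Selenow was not called in either fit, with a deposited log2 fold change of 1.21 (SE 0.514, adjusted p = 0.0618) and a relative one of 0.23 (SE 0.427, adjusted p = 0.875). It was called in deposited CPM without WT-labelled replicate 4 or KO-labelled replicate 1 or 2 (adjusted p from 0.0079 to 0.0433; 0.0079 to 0.947 over all alternatives).

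The glutathione peroxidases reduce peroxides with glutathione. Gpx1, the cytosolic one, had 112, 219, 224, 222 and 325 CPM in KO-labelled libraries and 54.9, 108, 40.4 and 152 CPM in WT-labelled libraries. Only KO-labelled replicate 1 fell within the WT-labelled range. The deposited log2 fold change was 1.41 (SE 0.420, adjusted p = 0.0156). Its relative log2 difference was 0.44 (SE 0.325, adjusted p = 0.633; interval 0.846-fold to 2.16-fold). The deposited call ended without WT-labelled replicate 1 or 3 (adjusted p = 0.0619 and 0.0755). It also ended without the mean-variance trend (0.0505), with each covariate and without the mitochondrial rRNAs, over a range of 0.0023 to 0.949 for all alternatives.

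Gpx4, which reduces lipid hydroperoxides in membranes and holds back ferroptosis, had 30.4, 29.6, 46.5, 55.6 and 64.1 CPM in KO-labelled libraries and 15.3, 38.0, 14.2 and 30.4 CPM in WT-labelled libraries. KO-labelled replicates 1 and 2 lay inside the WT-labelled range. It was not called in deposited CPM (log2 fold change 0.91, SE 0.461, adjusted p = 0.104) or relative to the library median (−0.06, SE 0.349, adjusted p = 0.961; interval 0.578-fold to 1.58-fold). The listed gene Gpx4-ps2 matches 733 bases of its transcript at 99.73%, and had 33.6 ± 12.8 CPM in KO-labelled and 20.3 ± 10.2 CPM in WT-labelled libraries. The 2 genes summed gave a relative log2 difference of −0.11.

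Gpx3 is the secreted peroxidase of plasma. It had 17.9, 8.12, 73.2, 11.1 and 38.1 CPM in KO-labelled libraries and 12.6, 32.0, 13.1 and 1.90 CPM in WT-labelled libraries. Its spread was the widest of the members: the pooled SD relative to the library median was 1.47 on the log2 scale, at the 97.8th percentile of all genes. WT-labelled replicate 4 held 2 Gpx3 reads, with a Wilson interval of 0.521 to 6.93 CPM. The relative difference of −0.01 (SE 0.686, adjusted p = 0.996) had an interval of 0.368-fold to 2.67-fold. Differences of any size within that interval remain possible.

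Txnrd1, the cytosolic thioredoxin reductase, had 39.2, 53.5, 64.2, 66.8 and 86.4 CPM in KO-labelled libraries and 14.9, 13.1, 24.2 and 51.3 CPM in WT-labelled libraries. KO-labelled replicate 1 alone fell within the WT-labelled range, below WT-labelled replicate 4. Its deposited log2 fold change was 1.39 (SE 0.455, adjusted p = 0.0230), and its relative one 0.41 (SE 0.339, adjusted p = 0.674; interval 0.817-fold to 2.17-fold). The deposited call ended without WT-labelled replicate 1 or 2 or KO-labelled replicate 3, 4 or 5 (adjusted p from 0.0527 to 0.0782). It also ended with the replicate number as a block (0.0612), with each covariate and without the mitochondrial rRNAs. The range was 0.0027 to 0.925 over all alternatives. The gene Eid3 lies within Txnrd1 on the same strand, and had 16.1 CPM on average in KO-labelled and 13.5 CPM in WT-labelled libraries.

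Selenop, the secreted protein that carries selenium between organs, had 110.2, 97.0, 251, 303 and 129 CPM in KO-labelled libraries and 22.1, 94.2, 15.2 and 389.6 CPM in WT-labelled libraries. The highest of all 9 libraries was WT-labelled replicate 4, 25.6-fold above WT-labelled replicate 3. The pooled SD of 1.22 on the relative log2 scale was at the 92.1st percentile of all genes. Deposited and relative log2 differences were 1.40 (SE 0.541, adjusted p = 0.0439) and 0.42 (SE 0.538, adjusted p = 0.803; interval 0.617-fold to 2.92-fold). The deposited call ended without WT-labelled replicate 1 or 3 or KO-labelled replicate 3 or 4 (adjusted p from 0.0781 to 0.271). It also ended with a pseudocount of 0.5 (0.0532), without the mean-variance trend (0.132), with each covariate and without the mitochondrial rRNAs. The range was 0.0015 to 0.707 over all alternatives. Selenop overlaps Ccdc152 on the other strand over 439 bases, and reads there cannot be told apart without strand. On recovered reads edgeR gave −0.21 and DESeq2 −0.20, the opposite sign.

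Levels of different genes were compared per kilobase of transcript, with the length of the transcript used for the codons above. Gpx1 and Selenok led in KO-labelled libraries, with 206 ± 70.3 and 189 ± 51.4 CPM per kb (SD, n = 5), and their ranges of 104 to 303 and 129 to 262 overlapped. In WT-labelled libraries Gpx1 had 82.9 ± 47.7, Selenop 62.5 ± 84.7 and Selenok 36.2 ± 22.6 CPM per kb (SD, n = 4), also with overlapping ranges. Selenok ranked first of the 10 in KO-labelled replicates 1 and 3 and second in the other 3. It ranked second in WT-labelled replicates 1 to 3 and 4th in WT-labelled replicate 4. Below these, KO-labelled means ran 85.4 for Selenop, 64.7 for Selenow, 45.5 for Gpx4, 38.6 for Selenof, 18.6 for Gpx3, 17.8 for Selenos, 17.1 for Txnrd1 and 7.35 for Selenot, and the ranges of each neighbouring pair overlapped. Selenos was 8th in KO-labelled libraries and 10th in WT-labelled libraries, where it had 3.70 ± 2.23 CPM per kb beside 3.79 ± 1.91 for Selenot.

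**Figure D4:**
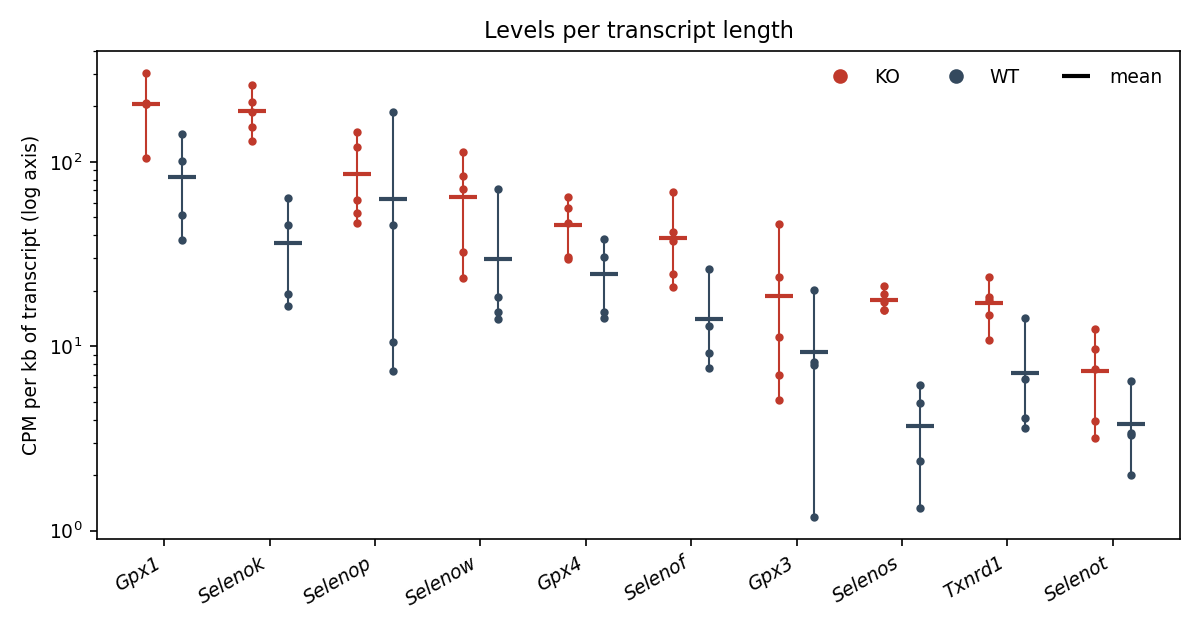
CPM per kilobase of transcript (log axis) of the 10 genes, ordered by the mean in KO-labelled libraries, with points for libraries, lines over the range and bars at the means, KO-labelled in red left of WT-labelled in blue. Gpx1 and Selenok are the highest in KO-labelled libraries, at 206 and 189 CPM per kb, and Selenot the lowest at 7.35.

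Of 24 selenoprotein genes of the mouse, 19 were listed, and 9 of these are outside the set of 10. In deposited CPM 4 of the 9 were called higher in KO-labelled libraries, beside 32.0% of all genes. Relative to the library median 0 of the 9 were, beside 0.0339% of all genes. Selenoi, an enzyme of ethanolamine phospholipid synthesis, had 5.46 ± 3.64 CPM in KO-labelled and 0.528 ± 0.745 CPM in WT-labelled libraries (relative log2 difference 0.99, adjusted p = 0.597). Selenon, an ER protein tied to calcium handling in muscle, had 27.1 ± 3.70 CPM in KO-labelled libraries and 14.8 ± 18.0 CPM in WT-labelled libraries, where replicates ran from 0.45 to 39.9 CPM (0.82, adjusted p = 0.601). Selenoh, a nuclear redox protein, had 10.7 ± 12.6 CPM in KO-labelled and 3.70 ± 7.04 CPM in WT-labelled libraries (0.94, adjusted p = 0.655). Txnrd3, a thioredoxin reductase known from testis, had 7.72 ± 3.88 CPM in KO-labelled and 1.91 ± 1.70 CPM in WT-labelled libraries (0.72, adjusted p = 0.664). The methionine sulfoxide reductase Msrb1 was at 0.63 relative to the library median, mitochondrial Txnrd2 at 0.11, Selenom at 0.02, Sephs2 at −0.10 and Selenoo at −0.13, each with an adjusted p of at least 0.780. Over all 18 listed selenoproteins besides Selenok the median relative log2 difference was 0.42, with 13 above 0, and it ranged from −0.14 in Selenot to 1.20 in Selenos.

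The place of the selenocysteine codon decides whether an exon junction follows it, which is the arrangement that exposes an unread UGA to nonsense-mediated decay. In 10 of the 18 genes the codon lies at least 50 bases before the last junction, and their median relative log2 difference was 0.33 (range −0.14 to 0.94). In the other 8 it was 0.52 (range −0.13 to 1.20). The 2 ranges overlap almost entirely. In Selenok the codon lies 5 bases before the last junction, and in Selenos it lies 80 bases after it (−80 when counted as distance before the junction).

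The machinery that makes and inserts selenocysteine showed no call relative to the library median. Among all genes 0.0339% were called higher there and 0.0763% lower, so 0 in a list of this size is no result about it. Of 14 genes fixed in the list, 12 were listed, 5 were called higher in deposited CPM, beside 32.0% of all genes, and 0 lower, and the median relative log2 difference was 0.24. The 5 were Sephs1, Sepsecs, Sars, Rpl30 and Eif4a3, named after their values were seen. Ncl, which binds selenoprotein hairpins, had 2319 ± 568 CPM in KO-labelled and 1420 ± 769 CPM in WT-labelled libraries (−0.16, adjusted p = 0.886). Sars, the seryl-tRNA synthetase that charges the selenocysteine tRNA with serine, had 139 ± 54.8 CPM in KO-labelled and 56.6 ± 18.99 CPM in WT-labelled libraries (0.28, adjusted p = 0.745). Sephs1, a paralogue of the selenophosphate synthetase, had the largest relative difference of the list, with 13.5 ± 3.70 CPM in KO-labelled and 1.73 ± 1.97 CPM in WT-labelled libraries (1.69, adjusted p = 0.285). Its WT-labelled values rest on 0 to 11 reads per library.

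Partners of Selenok and Selenos in ER-associated degradation and palmitoylation gave a similar picture. Of 19 genes, 18 were listed and 8 were called higher in deposited CPM, beside 32.0% of all genes. Relative to the library median 0 were called, beside 0.0339% of all genes called higher, and the median there was 0.23. Vcp, the p97 ATPase, had 383 ± 103 CPM in KO-labelled and 140 ± 84.1 CPM in WT-labelled libraries, with only KO-labelled replicate 1 inside the WT-labelled range (relative log2 difference 0.58, adjusted p = 0.451). Os9, an ER lectin that delivers substrates, had 290.3 ± 27.4 CPM in KO-labelled and 196 ± 77.8 CPM in WT-labelled libraries (−0.33, adjusted p = 0.640). Zdhhc6, the palmitoyl transferase that works with Selenok, is named after its values were seen. It had 19.4, 9.08, 24.9, 25.8 and 24.2 CPM in KO-labelled libraries and 2.25, 4.75, 1.58 and 5.70 CPM in WT-labelled libraries. The WT-labelled values rest on 3 to 12 reads per library. The groups did not overlap in CPM or relative to the library median, where the log2 difference was 1.30 (SE 0.472, adjusted p = 0.286). In CPM, 5 of the 18 listed genes had every KO-labelled library above every WT-labelled one, beside 18.7% of all genes. Relative to the library median 1 of the 18 did, Zdhhc6 itself, beside 2.07% of all genes.

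NRF2 target genes, a programme that includes Txnrd1 and other antioxidant genes, had 14 of 16 listed and 5 called higher in deposited CPM (Hmox1, Gsr, Txn1, Taldo1 and Prdx1, named after their values were seen), a share near the 32.0% of all genes. Relative to the library median 0 were called, beside 0.0339% of all genes called higher, and the median was 0.03. The ferritin chains Fth1 and Ftl1, which store iron, were at −0.18 (adjusted p = 0.836) and −0.33 (adjusted p = 0.764). Fth1 had 146 ± 24.1 CPM in KO-labelled and 85.7 ± 23.8 CPM in WT-labelled libraries, and Ftl1 had 113 ± 57.7 CPM in KO-labelled and 73.5 ± 40.7 CPM in WT-labelled libraries. Of 10 ferroptosis genes beside Gpx4, 9 were listed, and 4 were called higher in deposited CPM, beside 32.0% of all genes. The 4 were Acsl4, Lpcat3, Slc3a2 and Ncoa4, also named after their values were seen. Relative to the library median 0 of the list were called, beside 0.0339% of all genes called higher, and the median was 0.32. Slc3a2, a chain of the cystine importer, had 375 ± 129 CPM in KO-labelled and 157 ± 69.6 CPM in WT-labelled libraries (0.32, adjusted p = 0.720).

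Among the genes ranked, the 5 whose pattern over the 9 libraries was nearest to that of Selenok were no selenoproteins. The ranking covered 4783 genes with a mean of at least 20 CPM, without predicted-gene (Gm or Rik) names. Selenos, Selenot and most of the other listed selenoproteins fell below that level, and Gm48228 was left out by its name. Few of the ranked genes were selenoproteins, so their absence from the 5 nearest is no result about the family. The nearest were Atp6v1a (Pearson r = 0.981 on log2 values relative to the library median), a subunit of the vacuolar proton pump, and the matrix protein gene Thbs1 (r = 0.962). Next came the thioredoxin-binding protein gene Txnip (r = 0.956), the transcription factor gene Gtf2i (r = 0.956) and the choline transporter gene Slc44a1 (r = 0.949). These points share libraries and the difference between labels, which Selenok was chosen for. Of the members, Gpx1 was the nearest (r = 0.69, rank 445), followed by Selenof at 0.57, Selenop at 0.47, Txnrd1 at 0.42, Selenos at 0.34, Selenow at 0.22, Gpx4 at 0.15, Gpx3 at 0.01 and Selenot at −0.22. Zdhhc6 was at 0.82 and Gm48228 at 0.72.

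The stretches just upstream of Selenok and Selenos are shown because these 2 members had the largest differences. They come from the RefSeq promoter table (GRCm38.p6), plus strand, and end at the base before the annotated gene start for Selenok (chr14:29968130-29968307, 178 bases) and Selenos (chr7:66079399-66079648, 250 bases). Capitals mark an AP-1 motif in Selenok and an E-box in Selenos.
Selenok: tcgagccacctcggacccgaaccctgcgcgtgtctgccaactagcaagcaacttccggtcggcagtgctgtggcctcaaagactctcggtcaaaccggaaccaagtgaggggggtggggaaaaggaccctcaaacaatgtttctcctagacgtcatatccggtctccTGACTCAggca
Selenos: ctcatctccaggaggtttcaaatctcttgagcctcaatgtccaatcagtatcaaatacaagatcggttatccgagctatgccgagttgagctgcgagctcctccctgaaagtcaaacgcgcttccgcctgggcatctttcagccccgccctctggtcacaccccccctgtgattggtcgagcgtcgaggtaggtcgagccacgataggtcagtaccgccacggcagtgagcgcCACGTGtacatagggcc

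The full promoter windows of all 10 genes (17 windows) were searched on both strands for 8 motifs, and the same was done for 32851 windows of the table. A member counts if any of its windows holds the motif, while the shares are per window. The counts of genes and the shares of windows are therefore not alike, and no enrichment was tested. AP-1 (TGACTCA) was in 5.2% of all windows and, among the 10 genes, in Selenok, and the E-box (CACGTG) in 7.15% and in Selenos. The antioxidant response element (TGACNNNGC), the motif bound by NRF2, was in 12.4% of windows and in Selenok and Txnrd1, and the FOXO motif (TGTTTAC) in 3.65% and in Selenop. CCAAT was in 37.4% of windows and in 6 of the 10 genes, and the CRE (TGACGTCA, 1.79% of windows), which differs from AP-1 by 1 added base, was in none of the 10. The ER stress elements ERSE (0.119% of windows, containing CCAAT) and ERSE-II (0.0365%) were in none of the 10 either. Selenok and Selenos shared the CCAAT box and no other searched motif. The CCAAT box and the antioxidant response element of Selenok lie in the rest of its window, outside the stretch printed.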

How the data were processed

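RNA from 9 RiboTag captures (5 labelled KO, 4 labelled WT) was measured. Per the labels' protocols, 50 to 100 mg of tissue and 2 to 5 ng of RNA were used with a low-input cDNA kit. The authors deposited CPM for 11802 genes. Per the submitters' processing notes, the builds were GRCm38 and mm10 and the tools included HISAT2 2.1.0, Trimmomatic 0.39 and FastQC 0.11.9, with edgeR 3.32.0 in R 4.0.2. For the counter and its strand setting, nothing is given in the sources used here. Whole reads were recovered from the CPM steps (100% of nonzero values within 0.1 read).

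The 10 members and all lists were chosen with earlier results of these data known. Differences were tested with limma 3.58.1 (R 4.3.3, mean-variance trend) on log2(CPM + 1), as deposited and after subtracting each library's median, with Benjamini-Hochberg adjusted p under 0.05 over all genes as a call. This scale understates the change of low genes. A filter at a mean of 1 CPM removed no gene, the lowest mean being 1.77. The alternatives were pseudocounts of 0.5 and 5, other filters, quantile normalisation, no trend, a replicate block, 3 covariates, removal of mitochondrial rRNAs, leaving out each library, and count tests on recovered reads with DESeq2 1.42.0 and edgeR 4.0.16 (quasi-likelihood). The tests were checked on simulated data. Copies were found with BLAST 2.17.0. Named genes were the members, the other selenoproteins, the called or else the 2 highest genes of each list, and the 5 genes nearest to Selenok. Genes outside this rule are marked as named after their values were seen.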

Additional observations from a re-analysis of the deposited data

Results flagged for a closer look

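Selenow in WT-labelled replicate 4, at 52.3 CPM, stood apart from the other 3 WT-labelled libraries, which had 10.3 to 13.7 CPM. The gap from this library to its nearest neighbour was 0.920 of the range of the group. It was the only such value among 20 groups checked (the 10 genes in each of the KO-labelled and WT-labelled groups), and chance gives about 1 in 20. The check used CPM. Relative to the library median, WT-labelled replicates 1 to 4 were at 0.75, 0, 0.49 and 1.64 for Selenow. Replicate 4 also had the highest median gene level of its label, at 16.2 CPM.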

How the results depend on the processing

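Relative to the library median, 0 of the 9 members besides Selenok were called under every alternative run. Selenok itself was not called in edgeR, nor in the fits given below that called no gene at all. Relative to the library median, its log2 difference ranged from 1.28 to 1.73. In deposited CPM, 1.33 (endothelial covariate) and 1.67 (mitochondrial rRNA covariate) were the log2 values that moved Selenok by more than its spread. Members besides Selenok called higher in deposited CPM numbered 5. They numbered 3 without the trend and 3 with the replicate block, 0 with the adipocyte, endothelial or mitochondrial rRNA covariate, 0 without the mitochondrial rRNAs, and 1 (without WT-labelled replicate 1) to 6 with a library left out. Selenos was called in all 9 of these leave-one-out fits.

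All genes called in deposited CPM numbered 3804, against 1940 with the block, 8, 0 and 18 with the adipocyte, endothelial and mitochondrial rRNA covariates, 26 without the mitochondrial rRNAs, and 1103 (without WT-labelled replicate 1) to 5930 (without WT-labelled replicate 4) with a library left out. All genes called relative to the library median numbered 13, against 4 with a pseudocount of 0.5, 6 at a mean of at least 5 CPM, 0 without the trend, 38 with the block, 0 with the endothelial and 0 with the mitochondrial rRNA covariate, 5 in edgeR, 155 in DESeq2, and 0 (without WT-labelled replicate 1) to 127 (without KO-labelled replicate 1) with a library left out.

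Log2 differences of members that were not called relative to the library median changed sign in places. With the endothelial covariate, deposited values were −0.86 for Selenow, −1.24 for Selenop, −0.043 for Selenof, −0.12 for Selenot and −0.18 for Gpx4, and relative values −0.60, −0.46 and −0.053 for Selenow, Selenop and Selenof. With the mitochondrial rRNA covariate, deposited values were −0.12 for Selenow and −0.70 for Selenop, and relative values −0.49 for Selenow, −1.07 for Selenop, 0.12 for Selenot, 1.70 for Gpx3 and 0.00066 for Gpx4. With the adipocyte covariate, relative values were −0.28 for Selenow, −0.018 for Selenop and 0.74 for Gpx3. A pseudocount of 0.5 gave Gpx3 0.010, and one of 5 gave Gpx4 0.039. Selenop was −0.21 in edgeR and −0.20 in DESeq2. With a library left out, relative values ran from −0.010 (without WT-labelled replicate 2) to 0.53 for Selenow, −0.19 (without WT-labelled replicate 3) to 1.10 for Selenop, −0.37 to 0.17 for Selenot, −0.89 to 0.48 for Gpx3 and −0.25 to 0.17 for Gpx4. The cause of these changes was not tested.

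Same-numbered libraries did not deviate together (r = 0.03, −0.02, −0.04 and 0.04 for numbers 1 to 4, and 1 of 4 WT-labelled libraries correlated best with its own number), so the replicate block rests on a shared number and not on a pairing. KO-labelled replicate 5 has no WT-labelled library of its number and forms a block alone. The log2 differences of the block fit are therefore those of the fit without KO-labelled replicate 5. Low reads limit several genes in WT-labelled libraries, among them Selenos and Gpx3. Summed over these libraries, Selenos had 34 reads, Zdhhc6 26, Sephs1 16, Selenoh 16, Txnrd3 13 and Selenoi 5. A member without a call is not shown to be equal between the labels. Differences of any size within its interval remain possible, and the intervals are not limits of detection.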
